A study of Neurospora crassa with 12 samples.

Results

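Starved wild-type cells of *Neurospora crassa* had lower levels of a set of mostly moderately expressed genes than cells with sulfate, and 133 of the 9758 genes in the files make up this set. The members were chosen by their levels in the 6 wild-type libraries. A gene was taken when its mean in wild-type cells given 24 μM sulfate was at least 10 FPKM, a measure of expression that is corrected for transcript length and library size, its mean in starved wild-type cells was at most 2/3 of that, and each starved library lay below each library from 24 μM sulfate. The rule was met by 144 of the 4734 genes that reached 10 FPKM (3.04%), and 11 of these were among 12 genes left out by name. The low level in starved wild-type cells is therefore how the genes were picked, and it is described below without a test. The *cys-3-* libraries took no part in the choice, and the response of the same genes in that strain is the tested comparison.

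The study asked how *N. crassa* cells adjust transcription when sulfur runs out and which of these adjustments need the transcription factor CYS-3. The 4 groups were starved *cys-3-* cells, *cys-3-* cells given 24 μM sulfate, starved wild-type cells and wild-type cells given 24 μM sulfate, with 3 libraries each from independent cultures. Wild type was strain FGSC 4200. In the *cys-3-* mutant, labelled Δcys-3, a hygromycin resistance cassette replaces only part of *cys-3*, and all mutant libraries came from a single strain. All cultures first grew for 24 h in Vogel's minimal medium with methionine at 500 mg per liter, in constant light, and their washed mycelia then spent 4 h either without a sulfur source or with 24 μM sulfate.

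*N. crassa* is a filamentous fungus that takes up sulfate and reduces it to cysteine and methionine. CYS-3 is a bZIP protein that activates genes for sulfur uptake and assimilation when sulfur is scarce, and an SCF ubiquitin ligase that contains SCON-2 keeps it low when sulfur is plentiful. Genes that starving cells express less are commonly those of growth, such as the synthesis of amino acids and nucleotides, the building of the cell wall and the making of mitochondria and ribosomes.

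Each library held 7.33 to 11.2 megareads, as inferred from the width of the deposited confidence intervals, and the member with the least support had 31.9 inferred reads in its lowest library. Levels of *cys-3* itself (NCU03536) were 71.1 to 73.7 FPKM in starved *cys-3-* cells and 74.9 to 79.7 FPKM in *cys-3-* cells given 24 μM sulfate. It had 132 to 162 FPKM in starved wild-type cells and 58.7 to 66.6 FPKM in wild-type cells given 24 μM sulfate. Reads from the undeleted part of the locus are counted, so a level in the mutant does not check the label. Samples are labelled mycelia, and 9 markers of conidia and conidiation summed to 122 to 132 FPKM in starved *cys-3-* cells, 119 to 141 FPKM in *cys-3-* cells with sulfate, 80.8 to 96.96 FPKM in starved wild-type cells and 86.0 to 112 FPKM in wild-type cells with sulfate. The conidial genes *con-10* and *con-13* averaged under 1 FPKM in every group, and *con-6* 0.886 to 1.31 FPKM. Group means were higher for *csp-1* (34.1 to 56.3 FPKM), *eas* (12.0 to 29.8 FPKM) and *rca-1* (20.3 to 22.8 FPKM). For *fl* they were 11.5 to 15.3 FPKM and for *con-8* 5.71 to 9.53 FPKM. In each medium the mutant mean was above that of wild type for *csp-1*, *eas*, *fl* and *con-8*, and below it for *rca-1*. The sum was higher in every *cys-3-* library than in every wild-type library, and its part in the strain differences below was not tested.

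The 133 genes had a median of 15.7 FPKM in starved *cys-3-* cells, 20.02 FPKM in *cys-3-* cells given 24 μM sulfate, 13.2 FPKM in starved wild-type cells and 22.6 FPKM in wild-type cells given 24 μM sulfate. By the rule, starved wild-type cells had 0.221 to 0.667 of the level in 24 μM sulfate, with a median of 0.613, against a median of 0.969 over all 4734 genes. In starved *cys-3-* cells the ratio to 24 μM sulfate had a median of 0.802, against 0.987 over all 4734 genes, and it ranged from 0.502 to 1.41. Only 7 members were lower by 2-fold or more in starved wild-type cells. In wild-type cells given 24 μM sulfate 57 members had under 20 FPKM and 21 had 100 FPKM or more. A symbol from the reference annotation was found for 18 members and a name from the study alone for 7, so 108 are given by locus number.

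**Figure D1:**
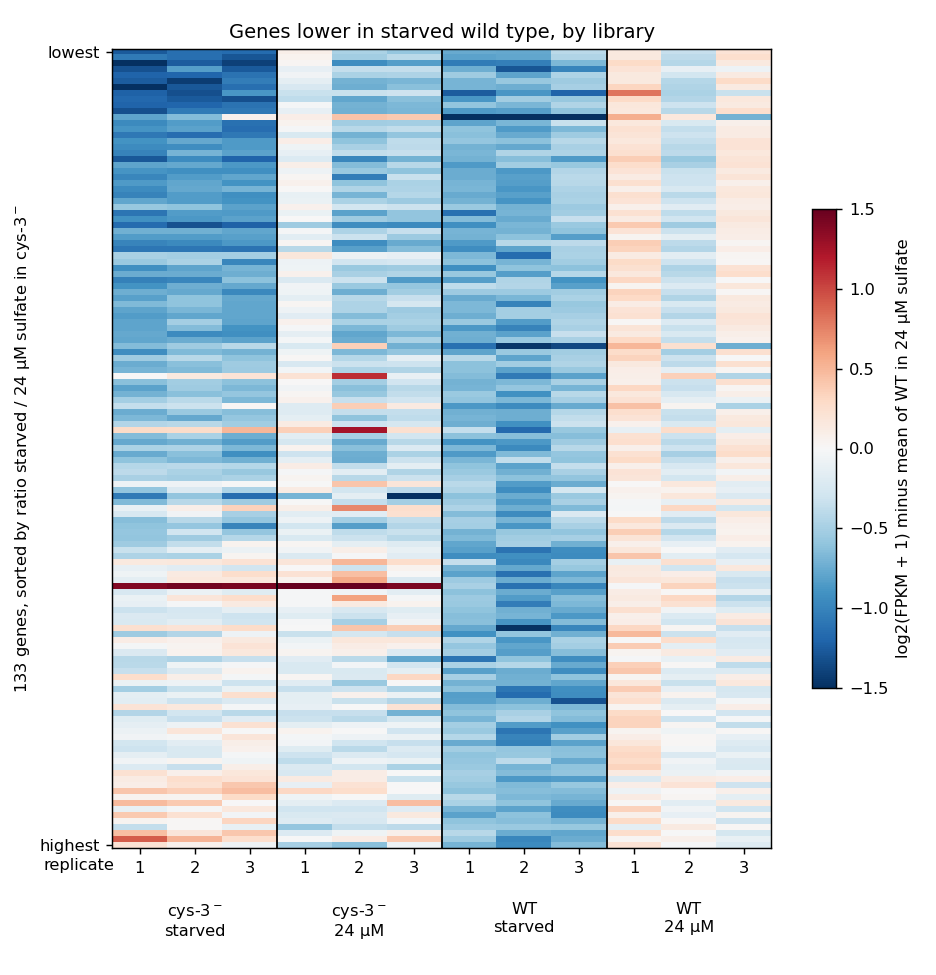
Levels of the 133 genes (rows) in 12 libraries (columns: replicates 1 to 3 of starved *cys-3-*, *cys-3-* in 24 μM sulfate, starved wild type (WT) and WT in 24 μM sulfate), as log2(FPKM + 1) minus the mean of WT in 24 μM sulfate, with rows sorted by the ratio of starved to sulfate-exposed *cys-3-* cells and colors limited to ±1.5. Starved WT is low in all rows by the rule, whereas starved *cys-3-* cells are low in the upper rows and close to WT in 24 μM sulfate in the lower ones.

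In the mutant, 11 of the 133 genes fell with an adjusted p under 0.05 (8.27%), against 0.634% of all 4734 genes tested in that direction. None rose at that threshold, whereas 0.718% of all genes did, and at an unadjusted p under 0.05 the members numbered 60 lower (45.1%, against 13.4% of all genes) and 8 higher (6.02%, against 10.3%). These p values come from a limma fit of log2(FPKM + 1) to the 6 *cys-3-* libraries, adjusted over the 4734 genes. Of the 11, 10 were also lower by 1.5-fold or more (7.52%, against 0.275% of all genes). All 3 starved *cys-3-* libraries lay below all 3 from 24 μM sulfate in 53 members (39.8%, against 16.9% of all genes) and above them in 8 members (6.02%, against 12.7%). By the ratio of means, 98 members were lower (73.7%, against 55.3% of all genes) and 35 higher in starved *cys-3-* cells. The ratio was at or below 2/3 in 18 members (13.5%, against 0.718% of all genes), between 2/3 and 0.9 in 66 (49.6%, against 19.7%), between 0.9 and 1.1 in 33 (24.8%, against 62.7%) and above 1.1 in 16 (12.0%, against 16.9%). The number that passed depends on single libraries. It was 0 without starved *cys-3-* replicate 1 or replicate 2, where no gene of all those tested passed in either direction. Without starved replicate 3 it was 2, and it was 6, 21 and 7 without replicates 1, 2 and 3 of *cys-3-* cells in 24 μM sulfate.

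**Figure D2:**
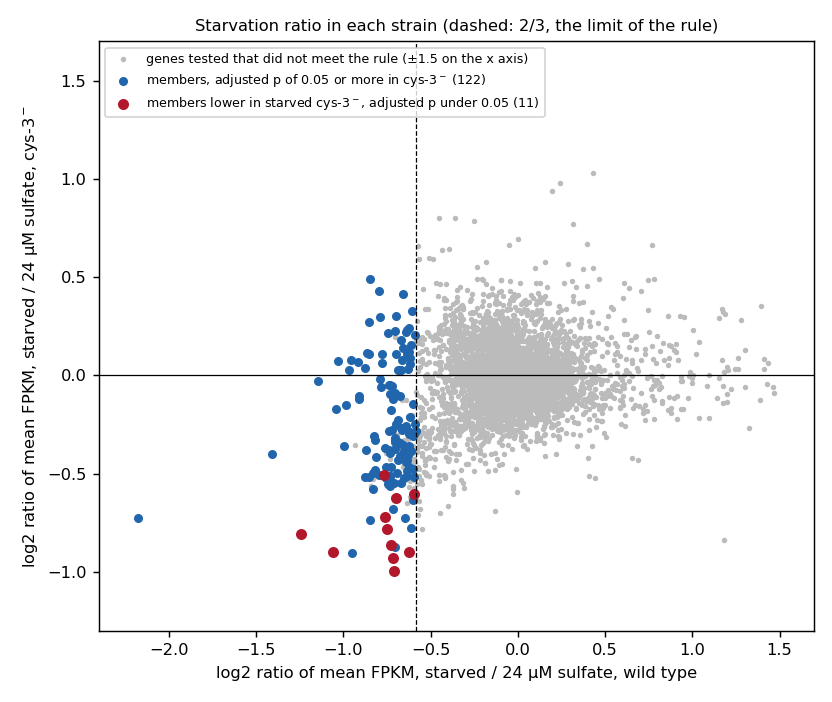
Log2 ratio of mean FPKM in starved cells to that in 24 μM sulfate, in wild type (x axis) and *cys-3-* (y axis), for the 133 members (blue, and red for the 11 that passed an adjusted p of 0.05 in *cys-3-*) and for tested genes that did not meet the rule (grey, drawn within ±1.5 on the x axis). The members lie left of the dashed line by the rule, and their *cys-3-* ratios spread from 0.502 to 1.41, on both sides of no difference.

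The 11 genes that fell in the mutant are mostly unnamed. One of the clearest was *znf-19* (NCU08507; chromosome II, 3426155 to 3427585), which encodes a ZPR1-type zinc finger protein. It had 30.5, 28.2 and 38.9 FPKM in starved *cys-3-* cells, against 56.6, 56.6 and 57.6 FPKM in *cys-3-* cells given 24 μM sulfate. In wild type it had 29.6, 38.6 and 30.8 FPKM in starved cells, against 126, 51.2 and 56.9 FPKM in 24 μM sulfate. The mutant groups were well apart, whereas a single wild-type library, replicate 1 in 24 μM sulfate, stood far above its fellows. In the mutant *znf-19* was 1.75-fold lower (log2 difference −0.80, SE 0.11, limma adjusted p = 0.0275).

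*emp-11* (NCU09489; chromosome II, 4442223 to 4443601), annotated as a phosphoglycerate mutase, the kind of enzyme that moves the phosphate group of phosphoglycerate in glycolysis, also fell. It had 8.46, 12.2 and 8.75 FPKM in starved *cys-3-* cells, against 20.5, 17.2 and 17.2 FPKM in *cys-3-* cells with sulfate (1.87-fold lower, log2 difference −0.85, SE 0.13, limma adjusted p = 0.0376). In wild type the values were 13.03, 8.66 and 10.8 FPKM in starved cells, against 25.9, 20.5 and 21.2 FPKM with sulfate. The mutant had 0.907 of the wild-type mean in starvation and 0.814 of it with sulfate.

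Among the unnamed genes, NCU04647 (chromosome V, 1346454 to 1348108) had 12.9, 13.02 and 13.9 FPKM in starved *cys-3-* cells, against 29.9, 22.1 and 22.3 FPKM in *cys-3-* cells with sulfate (1.86-fold lower, log2 difference −0.84, SE 0.11, limma adjusted p = 0.0275). In NCU02611 (chromosome I, 2906139 to 2909181) the values were 16.3, 15.5 and 13.9 FPKM in starved *cys-3-* cells, against 36.7, 24.3 and 26.3 FPKM in *cys-3-* cells with sulfate (1.91-fold lower, limma adjusted p = 0.0376). For both genes replicate 1 of the sulfate-exposed mutant was the highest of its group, and the 3 starved values were close together. By the ratio of means, the largest difference of the 11 was that of NCU06752, with 5.65, 6.27 and 6.15 FPKM in starved *cys-3-* cells, against 15.9, 10.5 and 9.63 FPKM in *cys-3-* cells with sulfate (1.99-fold lower, limma adjusted p = 0.0468). The remaining 6 genes were NCU02155 and, named after their values were seen, NCU00105, NCU04047, NCU00919, NCU00115 and NCU05233, which were 1.42- to 1.82-fold lower with limma adjusted p of 0.0376 to 0.0468. The 11 had 12.4 to 78.2 FPKM in sulfate-exposed wild-type cells. None of the 21 members at 100 FPKM or more was among them, and 0.240% of all tested genes at that level fell. The median *cys-3-* ratio was 0.965 for those 21 (0.979 for all tested genes at that level) and 0.765 for the 57 members under 20 FPKM (0.981 for all tested genes at that level).

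Genes for amino acid and nucleotide synthesis formed 1 of the groups of named members. These groups, and the gene families set beside them, were put together after the values were seen. *leu-2* (NCU04385; chromosome IV, 3538104 to 3541737) encodes isopropylmalate isomerase of leucine synthesis. It had 34.6, 34.7 and 35.2 FPKM in starved *cys-3-* cells, against 56.3, 50.003 and 42.7 FPKM in *cys-3-* cells with sulfate, and 38.1, 40.6 and 34.9 FPKM in starved wild-type cells, against 64.7, 56.8 and 67.5 FPKM in wild-type cells with sulfate. The mutant groups did not overlap, and the wild-type ones could not by the rule. In the mutant the difference (1.43-fold lower, log2 difference −0.49, SE 0.09) narrowly missed the threshold with a limma adjusted p of 0.0502. *ilv-2* (NCU03608; chromosome V, 1828369 to 1830812), which encodes the ketol-acid reductoisomerase of isoleucine and valine synthesis, was among the most highly expressed members. It had 604, 595 and 568 FPKM in starved *cys-3-* cells, against 620, 564 and 647 FPKM in *cys-3-* cells with sulfate, and 452, 433 and 387 FPKM in starved wild-type cells, against 743, 608 and 768 FPKM in wild-type cells with sulfate. The mutant groups overlapped (ratio 0.965, limma adjusted p = 0.703). The wild-type ones were 1.66-fold apart and by the rule could not overlap.

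*lys-3* (NCU03010) of lysine synthesis and *aro-6* (NCU05548), a DAHP synthase at the entry to aromatic amino acid synthesis, resembled *ilv-2*. *lys-3* had 82.1, 79.5 and 70.0 FPKM in starved *cys-3-* cells, against 65.6, 70.7 and 82.8 FPKM in *cys-3-* cells with sulfate (ratio 1.06, limma adjusted p = 0.64), and 44.9, 46.1 and 44.3 FPKM in starved wild-type cells, against 73.2, 64.7 and 76.4 FPKM in wild-type cells with sulfate. *aro-6* had 109, 103 and 78.0 FPKM in starved *cys-3-* cells, against 70.2, 67.3 and 108 FPKM in *cys-3-* cells with sulfate (ratio 1.18, limma adjusted p = 0.429), and 55.7, 50.8 and 45.6 FPKM in starved wild-type cells, against 78.8, 69.8 and 86.1 FPKM in wild-type cells with sulfate. In both genes the mutant groups overlapped, whereas the rule keeps the wild-type groups of every member apart. The purine gene *ad-7* (NCU04216) and *pyr-3* (NCU08287), which encodes the enzyme of the first steps of pyrimidine synthesis, lay between these and *leu-2*, with *cys-3-* ratios of 0.802 and 0.812 (limma adjusted p of 0.286 and 0.172). Starved wild-type cells had 1.63-fold less *ad-7* and 1.51-fold less *pyr-3* than cells with sulfate. None of the 6 genes passed the test in the mutant.

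The wider pathways were examined through the genes that carry the same kind of symbol, a choice that guarantees at least 1 low member in each family. All 9 *leu* and *ilv* genes tested had a lower mean in starved wild-type cells than with sulfate, as did all 4 *lys* genes and all 5 *aro* genes, whereas 58.8% of all tested genes did. Their median wild-type ratios were 0.747, 0.723 and 0.758. In the mutant the medians were 1.02, 1.01 and 1.104, and no gene of these families passed the test in either direction. Of 5 *ad* genes 4 had a lower mean in starved wild-type cells, with a median ratio of 0.901, as did both *pyr* genes, with a median of 0.736. Their medians in the mutant were 0.998 and 0.917, and none passed the test.

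The 4 named members with a mitochondrial role had lower means in starved than in sulfate-exposed *cys-3-* cells, as had 73.7% of all members. None of the 4 passed the test, and in wild type the rule requires a lower mean of every member. *cyt-19* (NCU07670; chromosome IV, 2295585 to 2298293) encodes a DEAD-box RNA helicase that helps introns of mitochondrial transcripts to splice. It had 30.6, 30.7 and 30.9 FPKM in starved *cys-3-* cells, against 54.4, 36.9 and 37.7 FPKM in *cys-3-* cells with sulfate, and 34.8, 29.0 and 38.5 FPKM in starved wild-type cells, against 58.0, 38.7 and 62.4 FPKM in wild-type cells with sulfate. The closely spaced starved values lay below every sulfate value of the mutant, but replicate 1 with sulfate was far above replicates 2 and 3, and the difference did not pass the test (ratio 0.715, limma adjusted p = 0.109). *ndi-1* (NCU00153), the alternative NADH dehydrogenase on the inner face of the inner membrane, had 8.69, 11.2 and 9.14 FPKM in starved *cys-3-* cells, against 19.2, 10.8 and 13.3 FPKM in *cys-3-* cells with sulfate (ratio 0.670, limma adjusted p = 0.153). It had 13.3, 14.01 and 11.9 FPKM in starved wild-type cells, against 29.3, 14.8 and 25.7 FPKM with sulfate. In each medium the mutant mean was lower than that of wild type, at 0.739 of it in starvation and 0.621 of it with sulfate.

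*tim54* (NCU07295), part of the machinery that inserts proteins into the mitochondrial inner membrane, and NCU01916, annotated as the mitochondrial carrier RIM2, had *cys-3-* ratios of 0.809 and 0.820 (limma adjusted p of 0.275 and 0.212). All 12 genes with a *tim* symbol or a synonym of that kind had a lower mean in starved wild-type cells, against 58.8% of all tested genes. Their median wild-type ratio was 0.786, against 0.969 over all tested genes. In 8 of the 12 all starved *cys-3-* libraries lay below all those with sulfate, against 16.9% of all tested genes. The family's median *cys-3-* ratio was 0.847, against 0.987 over all tested genes. None passed the test, and *tim54* was the family's 1 member of the set. The *cyt* genes, the family of *cyt-19*, were less uniform. Of 9 tested, 8 had a lower mean in starved wild-type cells, with a median ratio of 0.834. In *cys-3-* cells their median ratio was 0.835, 5 were lower without overlap of libraries, and none passed the test. The ratio was 1.24 for *cyt-20* in *cys-3-* cells and 1.04 for *cyt-26* in wild type.

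Genes of the cell wall and cell surface made up a further group, and none of its 4 genes passed the test in the mutant. *acw-4* (NCU09263; chromosome I, 9365024 to 9366871) encodes an anchored cell wall protein. It had 145, 168 and 183 FPKM in starved *cys-3-* cells, against 178, 209 and 152 FPKM in *cys-3-* cells with sulfate, and 87.2, 69.9 and 87.4 FPKM in starved wild-type cells, against 167, 163 and 130 FPKM in wild-type cells with sulfate. The mutant groups overlapped (ratio 0.921, limma adjusted p = 0.618) and were near the sulfate-exposed wild type, while starved wild-type cells stood alone at a lower level. *ncw-3* (NCU07817; chromosome III, 972480 to 974377) had 587, 712 and 751 FPKM in starved *cys-3-* cells, against 617, 951 and 614 FPKM in *cys-3-* cells with sulfate, and 430, 349 and 403 FPKM in starved wild-type cells, against 689, 777 and 460 FPKM in wild-type cells with sulfate. Its mutant groups overlapped too, but its highest starved wild-type library, at 430 FPKM, was close to the lowest with sulfate, at 460 FPKM.

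*ccg-14* (NCU07787), a clock-controlled gene for a secreted protein of the cerato-platanin type, and *ccg-13* (NCU08907), a clock-controlled gene for a cell wall protein, completed this group. *ccg-14* had 473, 586 and 584 FPKM in starved *cys-3-* cells, against 544, 776 and 449 FPKM in *cys-3-* cells with sulfate, and *ccg-13* had 189, 208 and 216 FPKM, against 218, 405 and 173 FPKM. For all 4 genes the starved and the sulfate-exposed mutant libraries overlapped, with ratios of 0.768 to 0.939 and limma adjusted p of at least 0.535. Replicate 2 of the sulfate-exposed mutant was the highest of its group in each, and without it the log2 differences in the mutant were above 0 for all 4, at 0.0044 to 0.14. Starved wild-type cells had 1.60- to 1.88-fold less than wild-type cells with sulfate, and starved *cys-3-* cells had 1.65 to 2.03 times the level of starved wild-type cells. *tpd-1* (NCU00175), which encodes a further anchored wall protein and was named after its values were seen, had 28.2, 27.9 and 32.7 FPKM in starved *cys-3-* cells, against 17.7, 9.66 and 15.0 FPKM in starved wild-type cells. With sulfate it had 29.5, 55.6 and 27.2 FPKM in *cys-3-* cells, against 20.9, 27.7 and 20.5 FPKM in wild-type cells. Its mutant groups overlapped (limma adjusted p = 0.52). Among 19 tested genes with *acw* or *ncw* symbols or synonyms, 16 had a lower mean in starved wild-type cells, against 58.8% of all tested genes. Their median ratio was 0.888, so that low levels were not equally marked across the family.

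Of the carbohydrate enzymes, *inv* (NCU04265; chromosome V, 5424497 to 5426871) encodes invertase, which splits sucrose, the carbon source of the medium. It had 106, 95.3 and 102 FPKM in starved *cys-3-* cells, against 107, 93.6 and 87.1 FPKM in *cys-3-* cells with sulfate (ratio 1.06, limma adjusted p = 0.602), and 67.1, 70.7 and 47.3 FPKM in starved wild-type cells, against 141, 102 and 116 FPKM in wild-type cells with sulfate. Starved wild-type cells were thus the low group. The *inv* locus shares 2375 bases with the locus NCU04264, which averaged 27.5 FPKM in starved wild-type cells and 12.9 FPKM in wild-type cells with sulfate, and reads without strand cannot be told apart between them. *gh43-4* (NCU09170), annotated as an arabinofuranosidase, had 16.3, 15.5 and 16.9 FPKM in starved *cys-3-* cells, against 15.0, 14.6 and 12.0 FPKM in *cys-3-* cells with sulfate, and 7.46, 7.35 and 7.23 FPKM in starved wild-type cells, against 11.3, 12.0 and 12.6 FPKM in wild-type cells with sulfate. Starved *cys-3-* cells were the highest group and starved wild-type cells the lowest, the groups with sulfate overlapped, and the mutant difference did not pass the test (limma adjusted p = 0.188).

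**Figure D3:**
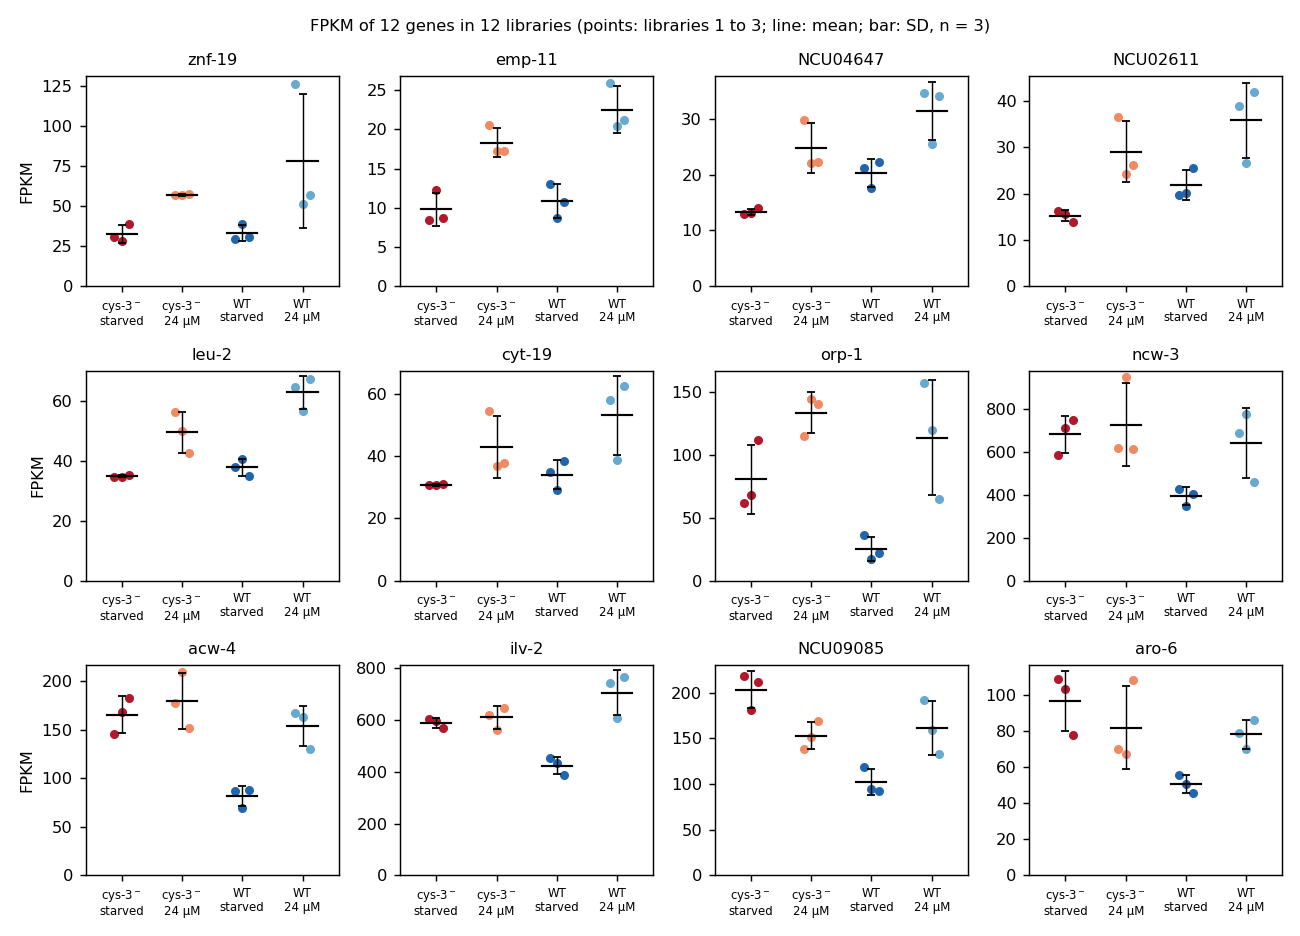
FPKM of 12 members in each library (points, replicates 1 to 3 from left to right), with the group mean (line) and SD (bar, n = 3), for starved *cys-3-*, *cys-3-* in 24 μM sulfate, starved wild type (WT) and WT in 24 μM sulfate; each axis starts at 0. Starved *cys-3-* cells are low in the top row and in *leu-2* and *cyt-19*, and are near WT in 24 μM sulfate in *ncw-3* and *acw-4*.

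Of the 133 members, the lowest starvation ratio in wild type belonged to *orp-1* (NCU01735; chromosome II, 2598794 to 2601814). It had 36.1, 17.2 and 22.3 FPKM in starved wild-type cells, against 157, 120 and 65.4 FPKM in wild-type cells with sulfate, a 4.53-fold lower mean. In *cys-3-* cells it had 61.8, 68.1 and 113 FPKM in starvation, against 115, 145 and 141 FPKM with sulfate (1.66-fold lower, log2 difference −0.76, SE 0.20, limma adjusted p = 0.0887). The mutant groups did not overlap, though the third starved library came close to the first one with sulfate, and the wild-type groups could not by the rule. Starved *cys-3-* cells had 3.20 times the level of starved wild-type cells.

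The other members with a wild-type difference of 2-fold or more, beside *orp-1*, *znf-19* and *emp-11*, were NCU08720, NCU00984, *ce3-1* (NCU04526) and NCU07888. NCU08720 had 126, 136 and 148 FPKM in starved *cys-3-* cells, against 168, 253 and 119 FPKM in *cys-3-* cells with sulfate, and 90.1, 71.0 and 75.8 FPKM in starved wild-type cells, against 279, 233 and 118 FPKM in wild-type cells with sulfate. NCU00984, annotated with a von Willebrand domain, had 24.4, 23.8 and 24.9 FPKM in starved *cys-3-* cells, against 20.4, 27.5 and 26.7 FPKM in *cys-3-* cells with sulfate, and 11.6, 6.71 and 9.91 FPKM in starved wild-type cells, against 25.7, 21.0 and 15.9 FPKM in wild-type cells with sulfate. In both genes the mutant groups overlapped, with limma adjusted p of 0.391 and 0.938, and starved wild-type cells were the low group. *ce3-1* and NCU07888 had *cys-3-* ratios of 0.887 and 1.05 (limma adjusted p of 0.279 and 0.764), after wild-type differences of 2.06- and 2.04-fold.

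Named members also included regulators and an RNA-processing factor. *ada-5* (NCU03931), whose loss alters several stages of development, had 10.8, 10.9 and 12.8 FPKM in starved *cys-3-* cells, against 10.96, 10.6 and 10.5 FPKM in *cys-3-* cells with sulfate, and 8.08, 5.17 and 7.53 FPKM in starved wild-type cells, against 12.1, 11.4 and 10.2 FPKM in wild-type cells with sulfate. It was thus near 11 FPKM everywhere but in starved wild-type cells, and it shares 529 bases with a neighbouring locus. NCU03273, annotated as an NF-X1 finger transcription factor, had 22.5, 23.9 and 22.1 FPKM in starved *cys-3-* cells, against 15.2, 17.5 and 13.3 FPKM in starved wild-type cells. With sulfate it had 17.7, 22.1 and 21.7 FPKM in *cys-3-* cells, against 28.3, 22.4 and 19.8 FPKM in wild-type cells. The mutant difference did not pass the test (limma adjusted p = 0.309). NCU03380, annotated as the rRNA helicase spb-4, which in yeast acts in ribosome assembly, had a *cys-3-* ratio of 0.788 (limma adjusted p = 0.201) and was 1.60-fold lower in starved wild-type cells than with sulfate.

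*cys-22* (NCU06625), which encodes cysteine dioxygenase, was the only member with every *cys-3-* library above every wild-type library in 24 μM sulfate. It had 59.9, 62.4 and 61.4 FPKM in starved *cys-3-* cells, 64.4, 72.5 and 60.7 FPKM in *cys-3-* cells with sulfate, 15.6, 9.65 and 10.8 FPKM in starved wild-type cells and 22.0, 28.3 and 17.5 FPKM in wild-type cells with sulfate.

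The strains were set side by side as values only, since the rule favors low values in starved wild-type cells and high ones with sulfate. Starved *cys-3-* cells had a higher mean than starved wild-type cells for 75 of the 133 genes (56.4%, against 48.8% of all 4734 genes), and with sulfate the *cys-3-* mean was the higher one for 21 (15.8%, against 47.8%). All starved *cys-3-* libraries lay above all starved wild-type libraries in 57 members (42.9%, against 28.4% of all genes) and below them in 26 (19.5%, against 25.9%). With sulfate the *cys-3-* libraries all lay below the wild-type ones in 7 members (5.26%, against 7.67% of all genes) and above them in 1 (0.752%, against 6.84%).

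The members differed in which wild-type library with sulfate was lowest, and the mutant ratio differed along with it. In 90 members it was replicate 2 and in 40 replicate 3, with replicate 1 in only 3, whereas the 4590 tested genes that did not meet the rule were spread as 1615, 1625 and 1350 over replicates 1, 2 and 3. The median *cys-3-* ratio was 0.746 for the 90 genes and 0.998 for the 40. All 11 genes that passed the test were among the 90, as were 52 of the 53 whose starved *cys-3-* libraries lay entirely below the others, and 1 was among the 40. This arrangement was thus seen in 57.8% of the 90 and 2.50% of the 40, against 27.8% and 6.44% of the genes that did not meet the rule and were lowest in replicate 2 and in replicate 3. The test was passed downward by 12.2% of the 90, against 0.492% of the genes that did not meet the rule and were lowest in replicate 2. The amino acid gene *leu-2* and the mitochondrial genes *cyt-19*, *ndi-1* and *tim54* belong to the 90, as do *ilv-2*, *lys-3* and *aro-6*. The 4 cell wall genes, *orp-1*, *cys-22* and *ada-5* belong to the 40. These sets were formed from the data, and no test was made between them.

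Library by library, the 90 genes had medians of −0.75, −0.66 and −0.77 in starved *cys-3-* cells and −0.08, −0.47 and −0.41 in *cys-3-* cells with sulfate, on the log2(FPKM + 1) scale relative to the mean of wild type with sulfate. Replicate 1 of the sulfate-exposed mutant was therefore near the sulfate-exposed wild type for these genes, and replicates 2 and 3 lay midway to the starved level. It was the highest of its group in 76 of the 90. Over the 133 genes, the deviations of replicate 2 from the group mean with sulfate correlated between *cys-3-* and wild type (Pearson's r of 0.776, against 0.443 over all tested genes), as did those of *cys-3-* replicate 1 and wild-type replicate 3 (0.707, against 0.372). These 2 pairs had the highest r over the members, and the other pairs of libraries with sulfate had −0.73 to 0.08. Same-numbered replicates 1 and 3 had 0.06 and 0.07. These are correlations across genes, which are not independent replicates, and the wild-type libraries with sulfate took part in choosing the genes. For the 40 genes the medians were −0.12, −0.02 and 0.15 in starved *cys-3-* cells and −0.06, 0.07 and −0.09 in *cys-3-* cells with sulfate, with replicate 2 the highest of the sulfate-exposed mutant in 25. In starved wild-type cells both sets were low in every library, at −0.70, −0.71 and −0.52 for the 90 and −0.57, −0.86 and −0.74 for the 40, as the rule requires. Among genes that did not meet the rule the same direction was visible but smaller, with median *cys-3-* ratios of 0.948 for those lowest in replicate 2 and 1.03 for those lowest in replicate 3. What the replicates of a group differ in besides their number is not given in the sources used here, and its part in these courses was not tested.

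**Figure D4:**
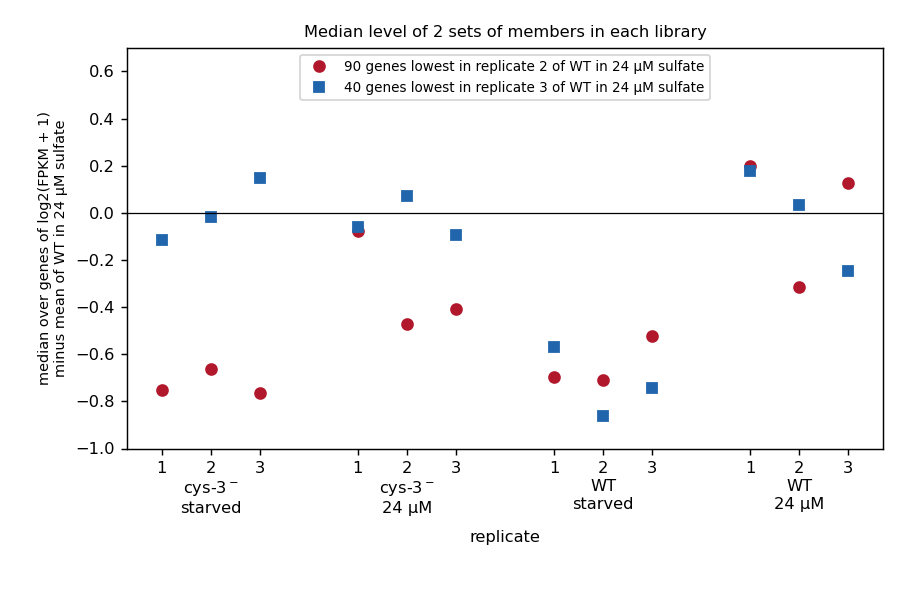
Median over genes of log2(FPKM + 1) minus the mean of wild type (WT) in 24 μM sulfate, in each of 12 libraries, for the 90 members lowest in replicate 2 (red circles) and the 40 lowest in replicate 3 (blue squares) of WT in 24 μM sulfate. In starved *cys-3-* cells the 90 genes lie at −0.77 to −0.66 and the 40 genes at −0.12 to 0.15, whereas both sets are low in starved WT.

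Among the members with higher levels in starved than in sulfate-exposed *cys-3-* cells, NCU09085 (chromosome I, 808582 to 811110) came closest to the threshold. It had 218, 181 and 212 FPKM in starved *cys-3-* cells, against 138, 152 and 168 FPKM in *cys-3-* cells with sulfate (log2 difference 0.41, SE 0.10, limma adjusted p = 0.0667), and 119, 95.1 and 92.6 FPKM in starved wild-type cells, against 192, 159 and 133 FPKM in wild-type cells with sulfate. The order of the media was reversed between the strains, with no overlap in the mutant and, by the rule, none in wild type. The NCU09085 locus shares 445 bases with NCU16318, and unstranded reads cannot be told apart between them. NCU16318 averaged 153 FPKM in starved and 112 FPKM in sulfate-exposed *cys-3-* cells. In wild type it averaged 75.5 FPKM in starved cells and 110 FPKM with sulfate. The highest ratio, 1.41, was that of NCU00361 (limma adjusted p = 0.111), which shares 1210 bases with another locus, and the mutant libraries of NCU08641 had 34.6, 26.04 and 21.6 FPKM in starvation, against 17.8, 19.5 and 23.9 FPKM with sulfate.

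Several unnamed members were abundant. NCU00373 had 159, 172 and 204 FPKM in starved *cys-3-* cells, against 186, 156 and 151 FPKM in *cys-3-* cells with sulfate (limma adjusted p = 0.565), and NCU06132 had 248, 275 and 263 FPKM, against 249, 245 and 181 FPKM (limma adjusted p = 0.273). In NCU09182 the values were 289.8, 293 and 304 FPKM in starved *cys-3-* cells, against 297, 369.7 and 313 FPKM in *cys-3-* cells with sulfate (limma adjusted p = 0.349). These mutant groups overlapped. In wild type, where the rule sets the groups apart, starved cells had 1.82-, 1.67- and 1.52-fold less of these genes than cells with sulfate. NCU03117 had 141, 147 and 130.1 FPKM in starved *cys-3-* cells, against 229, 162 and 186 FPKM in *cys-3-* cells with sulfate (ratio 0.724, limma adjusted p = 0.0855), without overlap. In NCU04292 the mean was 1.23 times as high in starved as in sulfate-exposed *cys-3-* cells (limma adjusted p = 0.225).

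Among the largest differences in *cys-3-* cells that did not pass the test, NCU03092 had 35.1, 43.9 and 39.4 FPKM in starvation, against 108, 54.8 and 59.2 FPKM with sulfate (1.87-fold lower, limma adjusted p = 0.0936). NCU02546 had 12.8, 13.02 and 13.7 FPKM in starvation, against 30.3, 18.5 and 19.04 FPKM with sulfate (1.71-fold lower, limma adjusted p = 0.0657). NCU09843 had 3.90, 3.33 and 4.70 FPKM in starvation, against 9.49, 6.14 and 6.24 FPKM with sulfate (1.83-fold lower, limma adjusted p = 0.0683), and shares 1160 bases with another locus. In each the groups did not overlap, and replicate 1 with sulfate was the highest of its group. The temperature-sensitive lethal locus *un-18* (NCU08616) and the genes *mig-11* (NCU00187) and *rbg-40* (NCU07722) had *cys-3-* ratios of 0.685, 0.715 and 0.842 (limma adjusted p of 0.0855, 0.211 and 0.458), and *rbg-40* shares 1561 bases with another locus.

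The members were found on all 7 chromosomes, with 27 on chromosome III (4.40% of its tested genes) and 5 on chromosome VII (1.15%), against 3.04% for the rule over all tested genes. Another member lay within 10 kb of 14 members. The closest were NCU04195 and NCU04196 on chromosome V, 47 bp apart, and NCU08967 and NCU08968 on the same chromosome, 292 bp apart. The locus of 33 members shares bases with another locus, by 500 bases or more in 7, where unstranded reads leave the values uncertain. Neither the neighbours nor the shared loci were counted over all tested genes, so these counts have no background. The median locus length was 2251 bp, against 2436 bp for all tested genes.

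Members just inside the rule were NCU05251, NCU01121 and NCU08229, with wild-type ratios of 0.667, 0.666 and 0.663. Just outside it were NCU04280, NCU07696 and *rpn-4* (NCU01640), with ratios of 0.668, 0.668 and 0.670.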

How the data were processed

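RNA sequencing of 12 mycelial cultures was used, grouped by the sample labels. The authors sequenced poly(A) RNA as unstranded 90-bp single-end reads, aligned them with HISAT2 (2.1.0 in the submitters' processing notes) to the transcripts predicted for the OR74A genome (version 12; introns could span 5000 bp at most), and deposited FPKM values from Cufflinks 2.2.1, which were not scaled between libraries. Reads behind an FPKM were inferred from its deposited interval and show counting error alone.

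Log2(FPKM + 1) of the 6 *cys-3-* libraries was fitted with limma 3.58.1 in R 4.3.3, with a mean-variance trend, over the 4734 genes with at least 10 FPKM in wild type with sulfate. Tests were two-sided, with Benjamini-Hochberg adjustment. For a single gene, the smallest p of an exact permutation test is 0.1 here. The fit was tested on simulated data. No test was made in wild type or between strains, since the wild-type libraries chose the members. The replicates were independent cultures, possibly of the same day. Fold changes are ratios of mean FPKM, and log2 differences understate the change of low genes.

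The members and lists were chosen with earlier results of these data known. Genes are named if their wild-type ratio was at most 1/2, if they were among the 10 highest or the 10 largest differences in either direction in *cys-3-* cells, if the reference gives a symbol, or if they lie nearest the limit of the rule. Others were named after their values were seen. Alternatives changed the pseudocount, minimum, scaling, weights or libraries. All 133 members matched the reference annotation (assembly NC12) in position. Product groups, protein composition and promoter motifs were not analysed here.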

Additional observations from a re-analysis of the deposited data

Results flagged for a closer look

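In 8 members every starved *cys-3-* library lay above every *cys-3-* library with 24 μM sulfate, while the rule puts every starved wild-type library below every wild-type library with sulfate. The ratios of starved to sulfate-exposed *cys-3-* cells were 1.41 for NCU00361, 1.33 for NCU09085, 1.25 for NCU01841, 1.23 for NCU07108, 1.21 for NCU01080, 1.17 for *gh43-4* (NCU09170), 1.17 for NCU04112 and 1.11 for NCU03273. Among all tested genes 12.7% had this arrangement in *cys-3-* cells, against 6.02% of the members. The loci of NCU00361 and NCU09085 share 1210 and 445 bases with another locus, where unstranded reads leave the values uncertain. The difference between the strains was not tested, because the wild-type libraries chose the genes, and none of the 8 passed the limma test in *cys-3-* cells.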

How the results depend on the processing

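Counts of genes meeting the rule are given here without the 12 genes left out by name, so the matching main count is 133. Upper quartile scaling, quantile normalization, a minimum of 5 FPKM or allowed overlap of replicates gave 127 to 178 genes. A minimum of 20 FPKM gave 76, and a ratio of at most 1/2 gave 7. Leaving out each wild-type library in turn gave 96 to 251 genes. The count of 251, reached without replicate 2 with sulfate, held 124 of the members.

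The counts in *cys-3-* cells were less stable. Members that fell numbered 7 with a minimum of 10 FPKM in any group, 0 with no minimum, 2 in a fit of all 12 libraries and 18 with array weights. Those that also differed by 1.5-fold numbered 6, 0, 2 and 14 in the same settings. Over all tested genes 0 fell and 0 rose with no minimum, 5 fell and 15 rose in the fit of all 12 libraries, and 81 fell and 69 rose with array weights. With the replicate number as a block no gene fell or rose, member or not (0 in each count). The deviations of same-numbered starved and sulfate-exposed *cys-3-* libraries had r of −0.10, −0.11 and −0.26 over genes. Pairs with unlike numbers had r of −0.20 to 0.34. Whether any of these libraries share a day or batch was not tested. Leaving out each *cys-3-* library in turn gave 0 to 21 members that fell, 0 to 17 that fell by 1.5-fold, 0 to 1 that rose, 0 to 79 genes in all that fell and 0 to 55 that rose. No gene could fall in every one of the 16 settings, since in some of them no tested gene fell. In at least 1 setting 24 members fell, and the matching count over all tested genes was not made.

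The members' median log2 ratio in *cys-3-* cells was −0.28, −0.25 with array weights and −0.35 to −0.17 with a *cys-3-* library left out. Members were also redefined without each wild-type library, chosen after seeing the data. The median was then −0.23, −0.24 and −0.32 without starved replicates 1, 2 and 3. Without sulfate replicates 1, 2 and 3 it was −0.22, −0.32 and −0.16. In these lists 9 to 13 genes fell and 0 to 1 rose, against 0.634% and 0.718% of all tested genes. The lists came from 96 to 251 genes meeting the rule, so similar counts are unlike shares. The causes were not tested. Of 47 genes followed singly, none that passed the test changed direction, and 6 that did not pass it (NCU00984, NCU07888 and the 4 cell wall genes) had the other sign in 1 or 2 settings. Over these genes and settings a call was lost in 41 cases and gained in 12.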
